A study of Mus musculus with 8 samples.

Results

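The renin-angiotensin-aldosterone system was followed through 8 of its genes in RNA sequencing libraries of adult mouse hearts, out of 49315 genes in the deposited count table. The members are Agt, Ace, Enpep, Mas1, Agtr1a, Agtr1b, Agtr2 and Nr3c2, taken by symbol as named components of the system. All 8 matched a row of the table, 6 passed the filter on low counts and were tested, and Agtr1b and Agtr2 were not. The 8 libraries came from whole-tissue heart samples of C57BL/6 mice aged 8 weeks, 4 from males and 4 from females, with no treatment or engineered allele in either sex. C57BL/6 is a standard inbred strain, and the labels state neither the part of the heart sampled nor whether different animals gave the libraries, so p-values measure the spread between these samples, which may be technical.

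In this hormone system the protease renin cuts angiotensinogen, the product of Agt, to angiotensin I. Angiotensin-converting enzyme, the product of Ace, trims that peptide to angiotensin II, which acts on the AT1 receptor to constrict vessels, raise aldosterone output and drive growth of heart muscle and scar tissue. Aldosterone in turn acts through the mineralocorticoid receptor, encoded by Nr3c2. Rodents carry a pair of AT1 receptor genes, Agtr1a and Agtr1b. Agtr2 encodes the AT2 receptor, which is known mainly from fetal tissue, and Mas1 the receptor of angiotensin-(1-7). Enpep encodes aminopeptidase A, which turns angiotensin II into angiotensin III. In the heart, ACE is known as an enzyme of the endothelial surface.

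The sequences below show what the counted transcripts encode. The first is the stretch of the Agt reading frame for angiotensin I, from the GENCODE transcript on GRCm38, with the codons of the 8 residues of angiotensin II in capitals and the codons of the 2 residues that ACE removes in lower case. The peptide starts at residue 30 of 482 in that frame, and Agt lies on the minus strand of chromosome 8, from 124556534 to 124569706.
Agt angiotensin I codons: GACCGCGTATACATCCACCCCTTCcatctc

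Ace lies on the plus strand of chromosome 11, from 105967945 to 105989964. Its long reading frame of 1312 codons holds 2 zinc-binding sites, 1 in each catalytic domain of the enzyme, and capitals mark the codons of the paired histidines, which bind the zinc ion, and of the catalytic glutamate beside the first. They begin at residues 395 and 993. The short reading frame, of 732 codons, holds 1 such site.
Ace zinc site 1: CACGAGatgggcCAC
Ace zinc site 2: CACGAAatgggcCAC

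The long and the short forms start at different promoters, and the gene count of Ace pools them. RefSeq gives 2 starts on GRCm38, 7241 bases apart. The 250 bases before each are printed because the count of Ace cannot be assigned to one of them. The internal promoter is known from testis, where it makes the short germ-cell form. Capitals mark matches, on both strands, to the GC box GGGCGG and to the cAMP element TGACGTCA or its variant TGAGGTCA. The upstream window is chr11:105967698-105967947 and the internal one is chr11:105974939-105975188, both on the plus strand.
Ace upstream promoter: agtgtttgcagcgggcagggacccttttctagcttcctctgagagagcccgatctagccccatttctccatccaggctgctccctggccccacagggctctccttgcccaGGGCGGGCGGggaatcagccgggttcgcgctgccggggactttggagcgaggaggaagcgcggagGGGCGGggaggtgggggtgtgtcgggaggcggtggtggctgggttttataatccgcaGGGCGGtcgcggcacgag
Ace internal promoter: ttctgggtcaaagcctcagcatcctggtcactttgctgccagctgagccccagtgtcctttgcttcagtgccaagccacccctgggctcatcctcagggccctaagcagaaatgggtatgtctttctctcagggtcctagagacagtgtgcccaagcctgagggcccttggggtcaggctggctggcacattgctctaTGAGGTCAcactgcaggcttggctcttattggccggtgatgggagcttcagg

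The upstream window held 4 GC boxes, the first pair of which overlap, and 0 matches to either spelling of the cAMP element. The internal window held 0 GC boxes and 1 match to TGAGGTCA. Of 32851 windows of the same length in the RefSeq table, 32.7% held a GC box, 1.94% held TGAGGTCA and 1.55% held TGACGTCA. A match is a description of the letters and not evidence of a bound factor.

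Total counts ran from 39612848 to 47097765 in the male libraries and from 32746054 to 35467832 in the female ones, so male libraries were the deeper ones. Sex-linked RNAs matched the labels: Ddx3y had 2027 to 2730 counts in males and 0 or 1 in females, and Xist had 8 to 16 counts in males and 5879 to 7509 in females. Levels are given as CPM, the count scaled to library size after normalisation by the trimmed mean of M-values (TMM), as mean ± SD over 4 libraries where a mean is given. Folds put male over female, so a positive log2 fold change means a higher male level, and SE is its standard error. Of 16180 genes tested, 613 (3.79%) differed between the sexes by edgeR's quasi-likelihood test at a Benjamini-Hochberg adjusted p below 0.05. Of all tested genes, 2.03% were higher in males and 1.76% were lower in males. Counts of called genes in each list below are to be read beside these shares. Male replicate 4 stood apart with atrial markers summed to 514.6 CPM, against 2704 to 2959 CPM in female libraries. Male replicate 1 stood apart with macrophage markers summed to 495.4 CPM. That sum was 299.2 CPM in the lowest male library and 251.4 to 294.2 CPM in female libraries. The macrophage marker Adgre1 had 62.8 CPM in male replicate 1 and 11.3 to 13.9 CPM in the other males.

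Among the members, Ace was higher in male hearts, and the other 5 tested members were not called. Of 6 tested members, 1 was called higher in males, beside 2.03% of all tested genes, and 0 were called lower in males, beside 1.76%. With so few members these shares say little about the group. At an unadjusted p below 0.05, 3 of the 6 passed, Ace, Nr3c2 and Agtr1a, with edgeR p of 3.4e-06, 0.0032 and 0.038, beside 19.5% of all tested genes. DESeq2 called 2 members, beside 6.33% of the 15221 genes to which it gave an adjusted p. The median log2 fold change of the 6 was -0.03, and that of all tested genes was near 0 (-0.0007). The values of the sexes did not overlap in 2 of the 6 members, Ace and Nr3c2, while 12.0% of all tested genes showed no overlap.

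**Figure D1:**
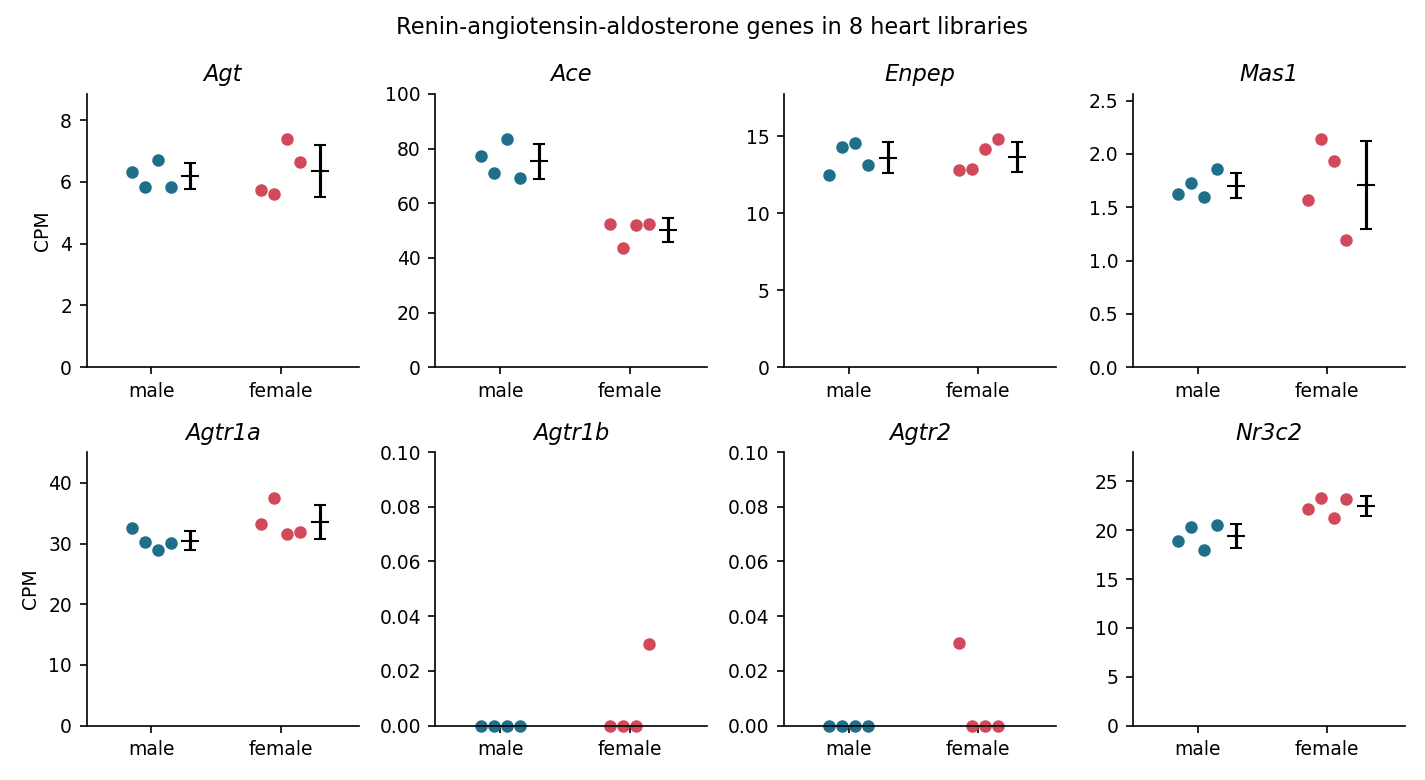
CPM of the 8 members in each of the 8 libraries, male left and female right; points are libraries, and the bar beside them is the mean ± SD over 4 libraries, drawn for the 6 tested members. All 4 male points of Ace lie above all 4 female points, those of Nr3c2 lie below, and Agtr1b and Agtr2 sit at 0 but for 1 female library each.

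Agt, the substrate of the whole cascade, was low in hearts of both sexes and did not pass the test. It had 6.33, 5.83, 6.70 and 5.85 CPM in male replicates 1 to 4, and 5.74, 5.62, 7.39 and 6.66 CPM in female replicates 1 to 4. The ranges overlapped, and 9 of 16 male-female pairs had the higher value in the male. Agt averaged 6.18 ± 0.419 CPM in males and 6.35 ± 0.831 CPM in females (n = 4 each), with a log2 fold change of -0.04 (SE 0.10, edgeR adjusted p = 0.87). The 95% interval of the fold ran from 0.835 to 1.13, so a change of the size seen in Ace lies outside it.

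Markers of liver and fat, the tissues best known for making angiotensinogen, differed in part between the sexes. Of 8 hepatocyte markers tested, 2 were higher in males, 0 were lower and 6 were not called, with a median log2 fold change of 0.51. Their summed level was 51.91 to 68.49 CPM in males and 41.21 to 46.49 CPM in females. Alb, the most abundant plasma protein of liver origin, and Apoa2, an apolipoprotein, were those called (log2 fold changes 0.74 and 0.80, edgeR adjusted p = 0.00075 and 0.0029). Of 10 white adipocyte markers, 8 were lower in males, 0 were higher and 2 were not called, with a median of -2.34. The 3 with the smallest p were Adrb3, Retn and Adipoq (-3.29, -2.18 and -2.41, edgeR adjusted p from 0.00075 to 0.0015). The white markers summed to 561.1 to 660.8 CPM in males and 673.5 to 846.8 CPM in females. Their log2 fold changes ran from -3.29 to -0.09. A sum is weighted to the most abundant markers, and here it differed less than the median log2 fold change. Of 7 brown adipocyte markers, 3 were lower in males and 0 were higher (median -1.02, range -5.16 to 0.15). They summed to 141.2 to 169.0 CPM in males and 151.2 to 247.4 CPM in females. The 3 called were Dio2, Ucp1 and Otop1 (-1.16, -5.16 and -3.91, edgeR adjusted p from 0.0034 to 0.011). By limma-voom Ucp1 was not called (adjusted p = 0.12). None of the defining markers was at 0 counts over the 8 libraries. The part of these tissues in the Agt counts was not tested, and in bulk samples fewer cells of a type and less RNA per cell cannot be told apart.

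Renin itself was close to absent. Ren1, the renin gene, had 32 counts over the 4 male libraries and 51 over the 4 female ones, or 0.189 ± 0.091 CPM in males and 0.366 ± 0.169 CPM in females. Its log2 fold change of -0.94 had an SE of 0.44 (edgeR adjusted p = 0.26), and the interval of the fold, 0.269 to 1.01, is wide at this depth. Atp6ap2, which encodes the (pro)renin receptor and is also a subunit of the vacuolar proton pump, was at 15.8 ± 1.87 CPM in males and 15.7 ± 0.293 CPM in females (log2 fold change 0.01, edgeR adjusted p = 0.95). Ctsd, a lysosomal protease that can also cut angiotensinogen, had 766 to 789 CPM in males and 677 to 746 CPM in females. Those groups did not overlap, but Ctsd was not called (0.12, edgeR adjusted p = 0.12; 0.038 by DESeq2).

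Ace carried the one called difference among the members, with a level 50.4% higher in male hearts. Ace had 77.4, 71.2, 83.5 and 69.3 CPM in male replicates 1 to 4, and 52.5, 43.6, 52.0 and 52.3 CPM in female replicates 1 to 4. Every male library lay above every female one, in 16 of 16 pairs. The lowest male value exceeded the highest female value by more than the SD of either sex.

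In means, Ace was at 75.4 ± 6.42 CPM in males and 50.1 ± 4.36 CPM in females (n = 4 each). The fold was 1.5 (95% interval 1.35 to 1.67) and the log2 fold change 0.59 (SE 0.07, edgeR adjusted p = 0.0012). By its p, Ace ranked 44 of 16180 genes tested. Among genes called higher in males the median fold was 1.27, and 87 of them, Ace included, had a log2 fold change at least as large as that of Ace. Ace was called again whichever of the 8 libraries was omitted, with log2 fold changes from 0.52 to 0.63 and adjusted p from 0.0014 to 0.0047, so it rested neither on male replicate 1 nor on male replicate 4. Gm11651, on the opposite strand, overlaps Ace and had 3 to 10 counts in males and 2 to 4 in females, against 1589 or more for Ace in every library.

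Endothelial cells, the known site of ACE in the heart, were followed through 10 markers. Of these, 1 was higher in males, 0 were lower and 9 were not called, with a median log2 fold change of 0.06. The 1 called was Tie1, an endothelial receptor kinase gene (148.9 ± 7.82 CPM in males and 129.5 ± 7.03 CPM in females, 0.20, edgeR adjusted p = 0.045). Omitting 1 library at a time, Tie1 was called in 1 of 8 fits, with adjusted p up to 0.12 without male replicate 3. The log2 fold change was positive in 6 of the 10 markers and negative in 4. The sexes did not overlap in 4 of the 10, beside 12.0% of all tested genes. Of those 4, Tie1 and Flt1 (0.17) were higher in males, and Kdr (-0.26) and Tek (-0.11) were lower. Flt1, Kdr and Tek were not called (edgeR adjusted p from 0.062 to 0.16). The markers summed to 1131 to 1252 CPM in males and 1095 to 1238 CPM in females, ranges that overlapped.

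Their mean sum was 1181 ± 57.5 CPM in males and 1167 ± 58.9 CPM in females. Ace equalled 6.8%, 6.29%, 6.67% and 5.76% of the summed endothelial CPM in male replicates 1 to 4, and 4.54%, 3.52%, 4.42% and 4.78% in female replicates 1 to 4. Because the sum was so alike in the sexes, this ratio largely restates the Ace values, with a male mean 1.49-fold the female mean on the log scale. It was chosen after the data were seen, and the part of endothelial content in the Ace difference was not tested. Macrophage markers summed to 299.2 to 495.4 CPM in males, with the highest sum in male replicate 1, and 251.4 to 294.2 CPM in females. These sums did not overlap, by a narrow margin, and 9 of the 10 markers had a positive log2 fold change, with a median of 0.34. By edgeR, 0 of the 10 were called. Lyve1, a marker of resident macrophages and of lymphatic endothelium, came nearest, at 23.8 ± 1.604 CPM in males and 18.4 ± 2.95 CPM in females (0.38, edgeR adjusted p = 0.058; 0.005 by DESeq2 and 0.046 by limma-voom). It was also called by edgeR without a filter, with the replicate block and in 1 of 8 fits that omitted a library. The part of macrophages in the Ace counts was not tested.

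**Figure D2:**
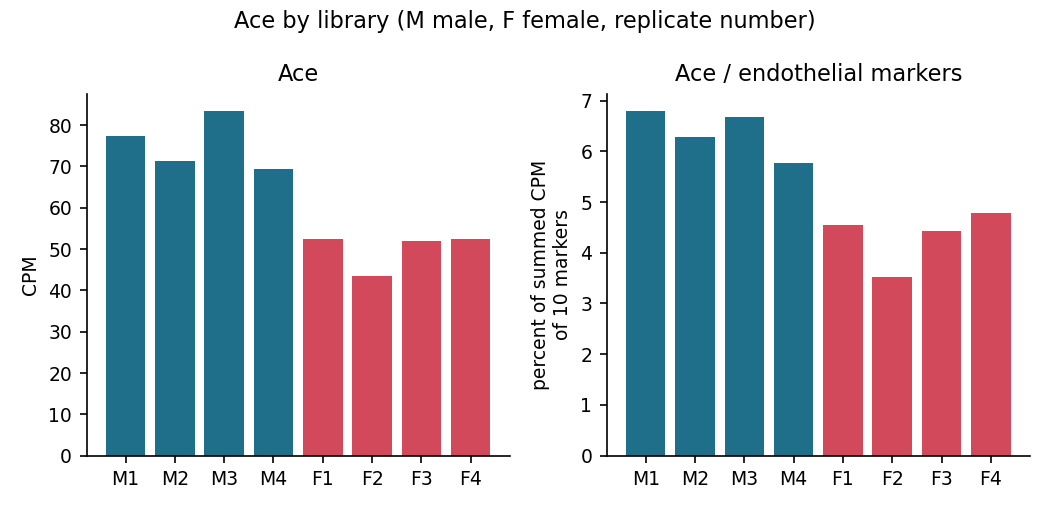
Ace CPM (left) and Ace as a percent of the summed CPM of 10 endothelial markers (right) in each library, M1 to M4 male and F1 to F4 female. Ace is 69.3 to 83.5 CPM in males and 43.6 to 52.5 CPM in females, and the sexes do not overlap in either panel.

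Of the enzymes that process angiotensin II further, Enpep showed nearly equal levels in the sexes. It had 12.5, 14.3, 14.6 and 13.1 CPM in male replicates 1 to 4, and 12.8, 12.9, 14.1 and 14.8 CPM in female replicates 1 to 4. The ranges lay over each other, and its means were 13.6 ± 0.991 CPM in males and 13.7 ± 0.977 CPM in females. The log2 fold change was -0.01 (SE 0.07, edgeR adjusted p = 0.98), and the interval of the fold ran from 0.895 to 1.11. Enpep lies on chromosome 3, from 129269175 to 129332720, and aminopeptidase A is known as a marker of pericytes. Of 8 pericyte markers, 2 were higher in males, 0 were lower and 6 were not called, with a median log2 fold change of 0.01. They summed to 1025 to 1066 CPM in males and 972.3 to 1028 CPM in females. The log2 fold change was positive in 4 of the 8 and negative in 4. In 4 of the 8 the sexes did not overlap, beside 12.0% of all tested genes. Among those 4, Notch3 (-0.18, edgeR adjusted p = 0.072) and Pdgfrb (-0.15, edgeR adjusted p = 0.12) were lower in males. The 2 called were Rgs5, given below, and Vtn, which encodes vitronectin (0.17, edgeR adjusted p = 0.043, called in 0 of 8 fits when 1 library was omitted, and adjusted p = 0.053 without a filter).

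Anpep was lower in males. It encodes aminopeptidase N, which acts after Enpep and turns angiotensin III into angiotensin IV. Anpep had 12.9, 13.5, 13.6 and 12.1 CPM in male replicates 1 to 4, and 17.5, 17.0, 16.6 and 15.8 CPM in female replicates 1 to 4, without overlap. The log2 fold change was -0.36 (SE 0.06, edgeR adjusted p = 0.008), and all 8 fits that omitted a library called it. The interval of the log2 fold change was -0.49 to -0.23 for Anpep and -0.16 to 0.15 for Enpep, and the difference between these genes was not tested.

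Other peptidases of the pathway were expressed without a call. Mme, encoding neprilysin, which makes angiotensin-(1-7) from angiotensin I, was at 9.04 ± 0.639 CPM in males and 9.33 ± 0.857 CPM in females (-0.05, edgeR adjusted p = 0.81). Log2 fold changes of Prep (0.06), Thop1 (0.11) and Nln (0.12), endopeptidase genes whose products can also make angiotensin-(1-7), had adjusted p from 0.27 to 0.44. Prcp, a carboxypeptidase gene (0.20), and Rnpep, encoding aminopeptidase B (0.07), had adjusted p of 0.19 and 0.42. Cma1, a mast cell chymase gene, was at 1.38 ± 0.153 CPM in males and 1.53 ± 0.399 CPM in females (-0.16, edgeR adjusted p = 0.72). Of 5 tested mast cell markers 0 were called, with a median of -0.12 and sums of 12.18 to 12.68 CPM in males and 12.77 to 13.25 CPM in females. Ctsg, the cathepsin G gene, had 3 counts over each sex and was not tested.

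**Figure D3:**
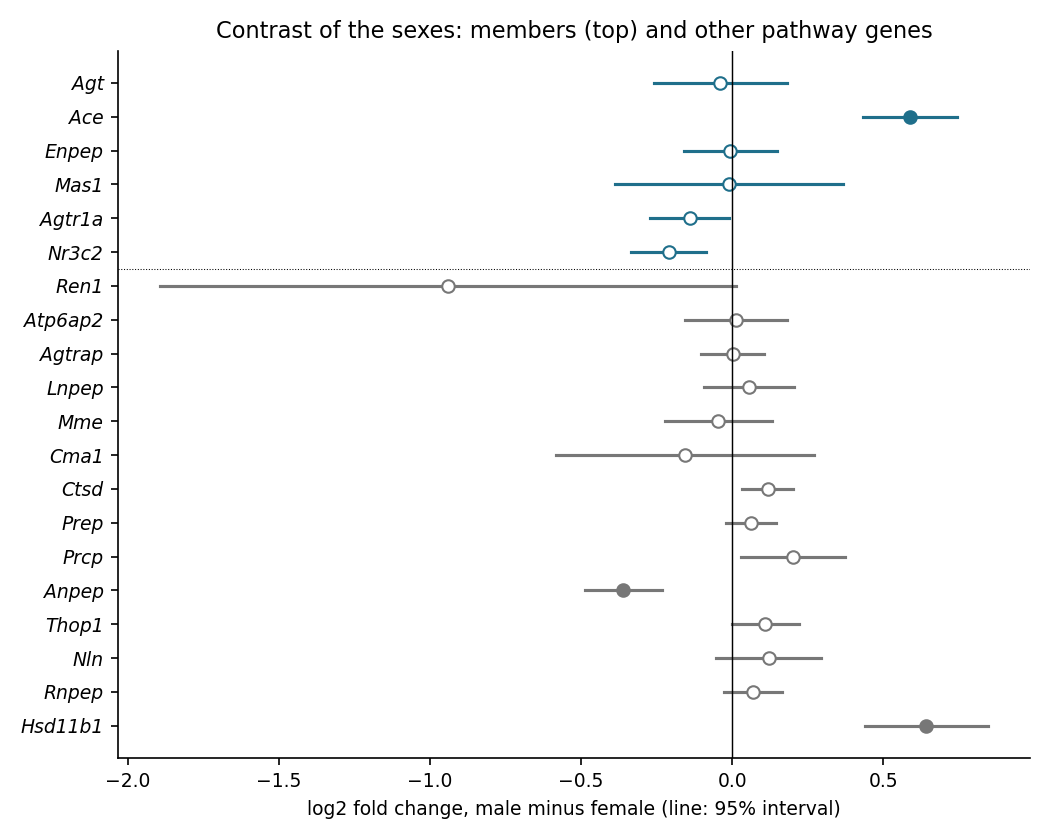
Log2 fold change, male minus female, of the 6 tested members (top) and other tested genes of the pathway (bottom), with 95% intervals; filled points passed edgeR's test at an adjusted p below 0.05. Ace (0.59) and Hsd11b1 (0.64) lie right of 0, Anpep (-0.36) lies left, and Ren1 has the widest interval.

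Among the receptors, Agtr1a had the highest level in hearts of both sexes and did not pass the test. It had 32.6, 30.3, 28.9 and 30.1 CPM in male replicates 1 to 4, and 33.2, 37.6, 31.6 and 31.8 CPM in female replicates 1 to 4. The ranges overlapped only slightly, and 2 of 16 male-female pairs had the higher value in the male. Agtr1a averaged 30.5 ± 1.53 CPM in males and 33.6 ± 2.77 CPM in females, with a log2 fold change of -0.14 (SE 0.06, edgeR adjusted p = 0.23). It passed in none of the 8 fits that omitted a library (edgeR adjusted p from 0.17 to 0.46), and female replicate 2 held the highest value. Without that library the log2 fold change was -0.08.

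Agtr1a is known from cardiac fibroblasts and from vessel wall cells, whose markers moved in part. Of 10 fibroblast markers, 3 were lower in males, 0 were higher and 7 were not called, with a median log2 fold change of -0.17. They summed to 2566 to 2954 CPM in males and 3010 to 3193 CPM in females. The log2 fold change was negative in 10 of the 10 and positive in 0. In 6 of the 10 the sexes did not overlap, beside 12.0% of all tested genes. The 3 called were Smoc2, Col14a1 and Lum, all genes of matrix proteins (-0.41, -0.79 and -0.66, edgeR adjusted p from 0.00014 to 0.00028). Of 7 smooth muscle markers, 1 was lower in males, 0 were higher and 6 were not called, with sums of 424.8 to 476.7 CPM in males and 460.7 to 532.2 CPM in females. The one called was Acta2, the smooth muscle actin gene (-0.39, edgeR adjusted p = 0.032, called in 2 of 8 fits when 1 library was omitted). The part of these cells in the Agtr1a counts was not tested.

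Agtr1b and Agtr2 were at or next to 0. Agtr1b, on chromosome 3 from 20314473 to 20367177, had 0 counts over the male libraries and 1 over the female ones. Agtr2, on chromosome X from 21484544 to 21489164, had 0 counts over the males and 1 over the females. A count of 0 over the 4 male libraries, 172589089 counts in all, allows up to 0.0174 CPM (3 counts, counting error only). Against that floor, Agtr1a per kilobase of exon in males was at least 1490-fold higher than Agtr1b and at least 2310-fold higher than Agtr2. With 1 count each in females, no bound is given there.

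The pair of AT1 genes differ in sequence, and whether the reads could tell them apart was not tested. Their reading frames, each of 359 codons, are 90.8% identical in bases and 93.9% in encoded residues, with 99 bases and 22 residues that differ. The first 60 coding bases of each are printed, with the 7 bases that differ in capitals.
Agtr1a start of reading frame: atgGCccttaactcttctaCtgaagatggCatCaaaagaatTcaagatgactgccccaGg
Agtr1b start of reading frame: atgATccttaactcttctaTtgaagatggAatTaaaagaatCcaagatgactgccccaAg

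Of the windows of 50 bases in the Agtr1b transcript, 1.57% occurred unchanged in that of Agtr1a, and of the windows of 100 bases 0 did (2048 windows). The read length is not given in the sources used here. Adding 0.5 counts, the Agtr1a to Agtr1b ratio per kilobase was 2080 to 2400 in males and 619 to 2390 in females (p = 0.17, exact permutation test of the log2 ratio, two-sided). That ratio reflects the added 0.5 counts, and the value of 619 belongs to female replicate 4, the only library with an Agtr1b count. The difference of the mean log2 ratios was 0.54 with all 8 libraries and 0.10 without that one.

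Mas1, on chromosome 17 from 12841079 to 12868143, was the least expressed of the tested members and the least precise in females. It had 1.63, 1.73, 1.59 and 1.86 CPM in male replicates 1 to 4, and 1.57, 2.14, 1.93 and 1.19 CPM in female replicates 1 to 4. All 4 male values lay inside the female range. The means were 1.70 ± 0.117 CPM in males and 1.71 ± 0.416 CPM in females, so the coefficient of variation was 6.91% in males and 24.3% in females. The log2 fold change was -0.01 (SE 0.17, edgeR adjusted p = 0.98), and the interval of the fold, 0.764 to 1.29, leaves room for a moderate difference in either direction. Airn, a long noncoding RNA gene on the opposite strand, overlaps Mas1 and had 434 to 561 counts in males and 406 to 506 in females, against 40 to 85 for Mas1. The strand setting of the counts is not stated, so reads of Airn in the Mas1 exons cannot be told apart from Mas1 reads. The second receptor reported for peptides of this branch, Mrgprd, had 0 counts over males and 1 over females.

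The receptor partners were expressed without a call. Agtrap, whose product binds the AT1 receptor and promotes its uptake into the cell, was at 50.7 ± 3.09 CPM in males and 50.7 ± 1.92 CPM in females (log2 fold change 0.001, edgeR adjusted p = 0.99). Lnpep, encoding the insulin-regulated aminopeptidase that binds angiotensin IV, was at 43.8 ± 5.09 CPM in males and 42.1 ± 0.691 CPM in females (0.06, edgeR adjusted p = 0.70).

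Nr3c2 had lower values in all male libraries than in any female one, but was not called. It had 18.9, 20.3, 17.9 and 20.6 CPM in male replicates 1 to 4, and 22.2, 23.3, 21.2 and 23.2 CPM in female replicates 1 to 4. The groups did not overlap, and in 0 of 16 pairs was the male value higher. The means were 19.4 ± 1.24 CPM in males and 22.5 ± 0.983 CPM in females, and the log2 fold change was -0.21 (SE 0.06). Nr3c2 did not pass the test across all genes (edgeR adjusted p = 0.069), whereas DESeq2 gave an adjusted p of 0.037 at the same log2 fold change. When 1 library was omitted, the edgeR adjusted p lay between 0.067 and 0.16. The gene lies on chromosome 8, from 76899442 to 77245012, and its overlapping genes had at most 16 counts in any library, against 735 or more for Nr3c2.

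The mineralocorticoid receptor also binds glucocorticoids, and 11-beta-hydroxysteroid dehydrogenases set how much of that hormone reaches it. Hsd11b1, whose enzyme regenerates active glucocorticoid, was higher in males. It had 12.5, 11.3, 12.4 and 11.2 CPM in male replicates 1 to 4, and 7.43, 8.97, 6.42 and 7.52 CPM in female replicates 1 to 4, without overlap. The fold was 1.56 (95% interval 1.36 to 1.8; log2 fold change 0.64, SE 0.09, edgeR adjusted p = 0.0043), and all 8 fits that omitted a library called it. Its span overlaps Lamb3 on the opposite strand, which had 1001 to 1069 counts in males and 966 to 1208 in females, ranges that overlap. With the strand setting unknown, Lamb3 reads in shared exons could not be told apart from Hsd11b1 reads. Hsd11b2, whose enzyme inactivates glucocorticoid in aldosterone target tissue, had 28 counts over males and 29 over females and was not tested. Of the steroid hydroxylases that complete corticosterone and aldosterone synthesis, Cyp11b1 had 0 counts in all 8 libraries and Cyp11b2 had 2 over males and 0 over females.

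**Figure D4:**
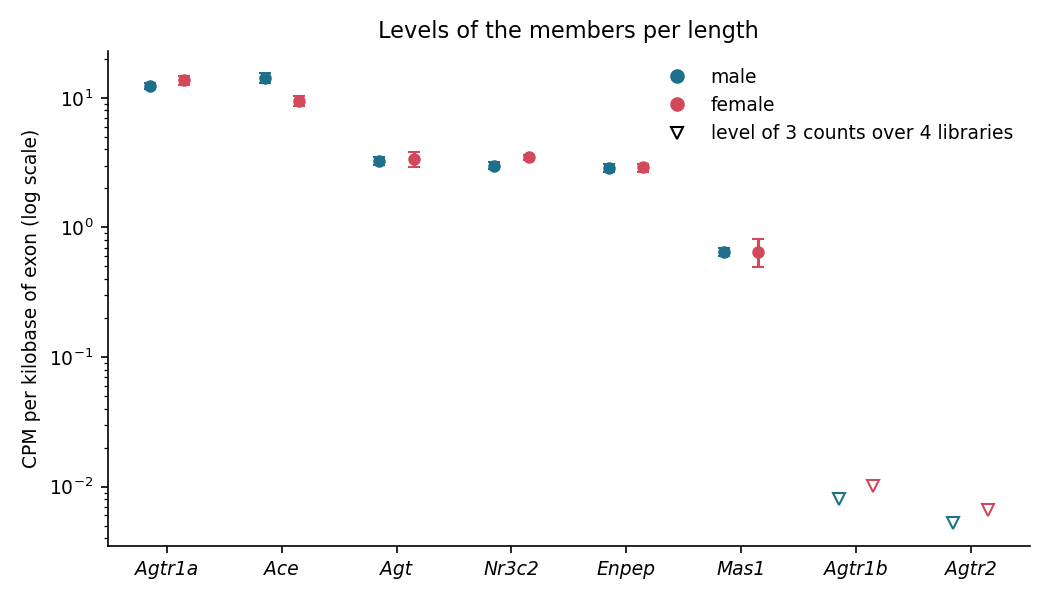
Level of each member per length, as CPM per kilobase of summed exon length on a log axis, mean ± SD over 4 libraries, male left of female; open triangles mark the level of 3 counts over 4 libraries for Agtr1b and Agtr2. Agtr1a and Ace lead, Agt, Nr3c2 and Enpep form a middle group, and Mas1 lies below them.

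Per length, Agtr1a and Ace had the highest levels of the members. Over all 8 libraries, Agtr1a was at 13.0 ± 1.07 CPM per kilobase and Ace at 11.9 ± 2.73, and their ranges overlapped. Within the sexes their order differed, since Ace was at 14.3 ± 1.22 and Agtr1a at 12.4 ± 0.622 CPM per kilobase in males, against Ace at 9.48 ± 0.825 and Agtr1a at 13.6 ± 1.12 in females. Agt (3.31 ± 0.326), Nr3c2 (3.24 ± 0.298) and Enpep (2.90 ± 0.194 CPM per kilobase) followed, with ranges that overlapped between neighbours. Ace lay above Agt 3.58-fold on average and Enpep above Mas1 (0.650 ± 0.108) 4.45-fold, in both cases with ranges apart over the 8 libraries. Exon length is the sum over all annotated transcripts, so these levels are understated for genes with many unused exons.

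Further components of the pathway were taken from a list. Of 21 genes on that list 20 matched, as Ren2 had no match among the annotated symbols, and 15 were tested. Hsd11b1 was higher in males, Anpep was lower, and 13 were not called, so that 2 of 15 were called beside 3.79% of all tested genes, with a median log2 fold change of 0.06. In the kinin system, whose peptide bradykinin ACE also degrades, 4 of 9 genes were tested and 0 were called by edgeR. Kng1, the kininogen gene, a liver gene at 0.799 ± 0.0267 CPM in males and 0.495 ± 0.0603 CPM in females, came nearest (0.69, edgeR adjusted p = 0.055). The bradykinin receptor genes Bdkrb1 and Bdkrb2 had 8 and 39 counts over males and 1 and 36 over females and were not tested.

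Downstream of the AT1 receptor, 2 of 25 tested signalling genes were higher in males, 0 were lower and 23 were not called. Over all tested genes, 2.03% were higher in males and 1.76% lower. The median log2 fold change of the 25 was 0.01. Gna12, the gene of the G protein subunit alpha-12, was at 216.2 ± 7.75 CPM in males and 182.8 ± 10.6 CPM in females (0.24, edgeR adjusted p = 0.016), and 6 of 8 fits that omitted a library called it. Rgs5, a pericyte-enriched gene whose product shuts off G protein signals, was at 447.4 ± 11.03 CPM in males and 396.0 ± 4.33 CPM in females (0.18, edgeR adjusted p = 0.017, called in 7 of those 8). The G protein genes best known for AT1 signalling, Gnaq (-0.01) and Gna11 (0.11), had adjusted p of 0.94 and 0.11.

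Of 15 genes known to respond to corticosteroid receptors, 1 was higher in males, 0 were lower and 14 were not called, with a median of 0.05. The shares over all tested genes were 2.03% higher and 1.76% lower. The one called was Fkbp5, a co-chaperone of steroid receptors, at 58.9 ± 10.8 CPM in males and 16.9 ± 4.57 CPM in females (1.80, edgeR adjusted p = 3e-04). Sgk1, the kinase gene used most widely as a readout of aldosterone, had a log2 fold change of -0.22 (edgeR adjusted p = 0.072). It had 46.57 to 57.56 CPM in males and 58.25 to 60.09 CPM in females. Sgk1 and Fkbp5 were the 2 of 15 genes in which the sexes did not overlap, beside 12.0% of all tested genes. Tsc22d3 and Per1 had log2 fold changes of 0.05 and -0.04 with adjusted p of 0.85 and 0.93. Fkbp5 is a known target of glucocorticoids and androgens as well.

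Of 15 matrix and growth genes that angiotensin II is known to raise, 1 was higher in males, 2 were lower and 12 were not called. Their median was -0.17, and the shares over all tested genes were 2.03% higher and 1.76% lower. Col3a1, a fibrillar collagen gene, was at 306.5 ± 18.2 CPM in males and 389.7 ± 17.9 CPM in females (-0.35, edgeR adjusted p = 0.004, called in all 8 fits that omitted a library). Fn1, the fibronectin gene, was at 68.2 ± 3.04 CPM in males and 94.6 ± 16.8 CPM in females (-0.47, edgeR adjusted p = 0.024, called in 5 of 8). Acta1, the skeletal actin gene of the fetal program, was at 507.6 ± 96.7 CPM in males and 315.4 ± 63.8 CPM in females (0.69, edgeR adjusted p = 0.028, called in 3 of 8). Nppa and Nppb, the natriuretic peptide genes, had log2 fold changes of -0.39 and -0.13 with adjusted p of 0.66 and 0.74, and Nppa is among the atrial markers that were low in male replicate 4.

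The heart identity of the samples showed in 10 cardiomyocyte markers, which summed to 93840 to 103500 CPM in males and 99570 to 100800 CPM in females. By edgeR, 0 of the 10 were called, and the median was -0.004. Ckm came nearest (0.15, edgeR adjusted p = 0.063; 0.0079 by DESeq2). It had 3018 to 3212 CPM in males and 2615 to 2919 CPM in females. Ckm was the 1 marker of the 10 in which the sexes did not overlap, beside 12.0% of all tested genes. Of 7 atrial markers 0 were called, with sums of 514.6 to 2889 CPM in males and 2704 to 2959 CPM in females. With male replicate 4 included, the log2 fold change was negative in 7 of the 7. In 2 of the 7 the sexes did not overlap, beside 12.0% of all tested genes. Of 6 tested nerve and Schwann cell markers, 1 was lower in males, Prph, the peripherin gene (-2.09, edgeR adjusted p = 0.0092), with sums of 12.83 to 14.03 CPM in males and 15.44 to 16.1 CPM in females.

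The genes whose pattern over the 8 libraries was most like each member were found by the root mean square difference of centred log2 CPM. The 9046 genes compared had a mean log2 CPM of 3 or more and a symbol that is no clone name (Gm, Rik, AC or AL). Nearest to Ace were Fah, the gene of the last enzyme of tyrosine breakdown (difference 0.0852; 21.2 CPM in males and 14.1 CPM in females on average), and Tnfrsf21, a death receptor gene (0.108). The median difference from Ace over all genes compared was 0.317. Nearest to Nr3c2 was the DNA damage kinase gene Atm (0.036, against a median of 0.149), and nearest to Agtr1a was Rbmx, an RNA-binding protein gene (0.0254, against 0.134). Nearest to Enpep was the phosphatase gene Inpp5j (0.033), to Agt Tbc1d10a (0.0444) and to Mas1 the adipogenic regulator gene Pparg (0.108). With 8 libraries these are descriptions of likeness, and genes of small variation lie close to many others.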

How the data were processed

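Hearts were dissected, RNA was taken with Trizol, and libraries were made from total RNA with the Illumina TruSeq RNA kit, per the labels' protocols. The authors deposited raw counts per gene; the submitters' processing notes list the build GRCm38 (mm10) and, as tools, featureCounts, Subread 1.5.2, Trimmomatic 0.36 and STAR 2.5.2b. The strand setting, the handling of reads with several matches and the annotation version are not given in the sources used here. The 8 single-sample tables held the same counts as the series table, with exon lengths. The deposited normalized signal equals the count divided by 1 size factor per library (100% of values whole within 0.01 when multiplied back) and served as an alternative for levels. Symbols matched 48970 IDs.

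From these counts, genes were filtered with filterByExpr (minimum count 10, total 15), scaled by TMM and tested over all genes, male minus female, with edgeR 4.0.16 in R 4.3.3 (quasi-likelihood, Benjamini-Hochberg, threshold 0.05). Each SE was derived from the log2 fold change and its F statistic, and the 95% intervals use the t distribution. Log2 CPM used a prior count of 2. Exact permutation tests used scipy 1.17.1. The intervals include the spread between libraries. Floors use plain totals and cover counting error only, since counts carry no molecular identifiers. On the TMM scale 1 count was worth 0.0218 to 0.0254 CPM in males and 0.0274 to 0.0302 CPM in females.

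The 8 members and 17 lists (5 of pathway genes, 12 of cell markers; 1 of 195 entries had no match) were chosen with earlier results of these data known. Named genes are the members, the tested pathway components (1 of which is counted but not reported here), up to 3 called genes per list and direction by p (or the smallest p where none was called), and the 2 genes nearest to each member. Bdkrb1, Bdkrb2, Gnaq, Gna11, Sgk1, Tsc22d3, Per1, Nppa, Nppb, Flt1, Kdr, Tek, Notch3, Pdgfrb and Adgre1 are named outside that rule. So are the untested Ctsg, Mrgprd, Hsd11b2, Cyp11b1 and Cyp11b2. Alternatives were other scalings and filters, DESeq2 1.42.0, limma-voom (limma 3.58.1), thinning to the smallest total, the replicate number as a block and each library left out. The procedure was tested on simulated data.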

Additional observations from a re-analysis of the deposited data

Results flagged for a closer look

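A library stood far from the other 3 of its sex in 4 of 118 groups of 4 examined (59 genes, both sexes); chance alone flags about 1 in 20. Ace was lowest in female replicate 2, at 43.6 CPM, beside 52.0, 52.3 and 52.5 CPM in the other females, and without that library its log2 fold change was 0.52. Dkk3, an atrial marker, was lowest in male replicate 4, at 22.7 CPM, beside 80.1 to 88.9 CPM in the other males. Cma1 was lowest in female replicate 1, at 0.936 CPM, beside 1.65 to 1.79 CPM, and Prcp in female replicate 4, at 8.77 CPM, beside 9.93 to 10.1 CPM.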

How the results depend on the processing

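Ace kept its call and direction under all 16 alternative fits. The number of members called was 2 with DESeq2, which added Nr3c2 (log2 fold change -0.21), and 1 under the others. The 613 calls over all genes became 964 with DESeq2, and the 329 higher in males became 547 with DESeq2 and 503 without a filter. With a library left out, calls ran from 315 (without male replicate 3) to 490 over all genes, with 354 without female replicate 2 and 379 without female replicate 3, from 155 to 278 higher in males and from 155 to 220 lower in males. The 28 calls among the listed genes became 43 with DESeq2. Members near 0 changed sign without a call: Mas1 (-0.0108) was 0.0138 in limma-voom, 0.0091 with the replicate block and 0.0223 after thinning. With a library left out, the log2 fold change ran from -0.1474 to 0.1146 for Mas1, from -0.0968 to 0.0407 for Agt and from -0.0403 to 0.0337 for Enpep. Among pathway genes, Agtrap (0.0014) was -0.0043 with upper quartile scaling, -0.0016 with the 1 CPM filter, 0 with the block and -0.0062 after thinning, and Atp6ap2 (0.0127) was -0.0122 after thinning. With a library left out, Atp6ap2 ran from -0.0379 to 0.0637, Agtrap from -0.0307 to 0.0399, Lnpep from -0.0264 to 0.1042 and Mme from -0.0856 to 0.018. Of the nearest genes, Tbc1d10a ran from -0.0575 to 0.1011, Tent5a from -0.1073 to 0.0097, Scyl3 from -0.1198 to 0.0259, Inpp5j from -0.058 to 0.018 and Mxra7 from -0.068 to 0.0132. The labels do not say whether the replicate number pairs the libraries. Correlations of same-numbered deviations ran from -0.12 to 0.103, and with 4 libraries per sex these cannot decide it. The replicate block gave 427 calls, without Rgs5, Acta1, Tie1 and Vtn (adjusted p of 0.061, 0.058, 0.056 and 0.089). The ratio of Agtr1a to Agtr1b without an added count was not computed because counts of 0 allow none, and left-out versions of that ratio (3 against 4) and its block version cannot reach p below 0.05. Agtr1b and Agtr2, each with 0 counts over males and 1 over females, were left untested. Ren1, Cma1 and Mas1 had low counts and wide intervals, which also include the spread between libraries.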
